A study of Mus musculus with 2 samples.

Results

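The transcripts described here encode cell-surface receptors of myeloid cells: C-type lectins (Clec genes), Fc gamma receptors, receptors of the Trem, Cd300, Pir and Lilr families, receptors for colony-stimulating factors (CSF), scavenger receptors, chemoattractant receptors and the adaptor chains that signal for many of them. The rule that picks them uses gene symbols alone, though it was drawn up with earlier results of these data known. A member is a probe set, the group of array probes that reads 1 transcript, whose single platform symbol is Clec, Fcgr, Trem or Treml with a number, begins with Cd300, Pira, Pirb or Lilr, or is 1 of a named set (Fcer1g, Tyrobp, Csf1r, Csf2ra, Csf2rb, Csf3r, Msr1, Marco, Cd36l1, Cd68, Cd163, Mrc1, Fpr1, Fpr2, C3ar1 and C5ar1). The rule found 89 of 45101 probe sets, which read 57 of 18193 genes. A further 6 probe sets carried several symbols that include a member's, among them those for Pira1, Pira2 and Lilrb4a, and these are reported apart because their signal cannot be given to 1 gene. Cd36l1 and Fpr1 matched no probe set with a single symbol.

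The RNA came from scrapings of the colon mucosa of C57BL/6 mice of 6 to 8 weeks (7 weeks in the design text) that were treated with 3% dextran sulfate sodium (DSS), a polymer that damages the lining of the colon, for 3 days. The Hif-2αF/F group has Epas1, which encodes the hypoxia-inducible factor HIF-2α, as a conditional allele, and the Hif-2αΔIE group is read here, from knowledge of the mouse model, as lacking the gene in the intestinal epithelium only, so that its myeloid cells keep it. Both groups had DSS, and no array of untreated mice was analysed here, so the response to injury was not measured. The design text gives 6 mice for F/F and 5 for ΔIE, yet the data hold 1 array per genotype, and neither the pooling of RNA nor the promoter that drives Cre is given in the sources used here. Between genotypes, a test, an error or a p-value was therefore not possible, and each difference compares 2 arrays and has no replicate check.

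Levels are given as log2 values from robust multi-array averaging (RMA). A difference is ΔIE minus F/F on that scale, so that a fall of 1 is a 2-fold difference. A gene is represented by its brightest probe set and was kept where the mean of both arrays reached 6.11, the median over all probe sets. Array medians were 6.12 for F/F and 6.11 for ΔIE. The labels were checked with the 4 control probe sets for Cre recombinase, which read 2.92 to 4.22 on the F/F array and 7.86 to 10.01 on the ΔIE array, whereas 14 bacterial bioB, bioC and bioD control probe sets differed by -0.10 to 0.38. Epas1 read 11.90 and 11.77, and where its probe set lies relative to the deleted part was not determined. All 12 colon epithelium markers kept were at 11.76 or more on the F/F array, with a median difference of 0.11.

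Myeloid receptors fall into activating and inhibitory kinds. Activating receptors such as the Fc gamma receptors for IgG, Mincle and TREM-1 have short tails and borrow an adaptor, the Fc receptor gamma chain (Fcer1g) or DAP12 (Tyrobp), whose immunoreceptor tyrosine-based activation motif (ITAM) recruits the kinase SYK. Inhibitory receptors carry the opposing motif (ITIM) in their own tail and recruit phosphatases. In the gut these receptors sit on macrophages, monocytes, dendritic cells and neutrophils, which sense microbes, immune complexes and dead cells beneath the epithelium.

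The myeloid receptor genes were lower on the ΔIE array almost throughout. Of the 40 member genes kept, 35 differed by less than 0 and 23 (57.5%) were lower by 2-fold or more, and 0 were higher by 2-fold. Over all 11593 genes kept, 46.1% differed by less than 0, 4.92% were lower by 2-fold or more and 1.11% were higher. The median member difference was -1.08, against 0.02 over all genes kept, and the quartiles of the members were -1.45 and -0.33. The largest difference was that of Clec4e, which encodes Mincle, a receptor for mycobacterial and fungal glycolipids and for a protein released by dying cells, at 9.94 on the F/F array and 7.94 on ΔIE, 4.0-fold lower. At the other end, Clec2e read 7.19 and 7.89, 1.62-fold higher. The 5 members kept that were above 0 all belong to Clec genes set apart here as mainly of cells other than myeloid cells. Of the 7 such genes kept, 0 were lower by 2-fold and the median was 0.21, whereas each of the other 33 members kept was below 0, with a median of -1.25. This division by cell was drawn up with the values known and is a description. It was not checked against expression by cell type. With Clec2d (0.43) placed among the others, not all of those would be below 0.

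**Figure D1:**
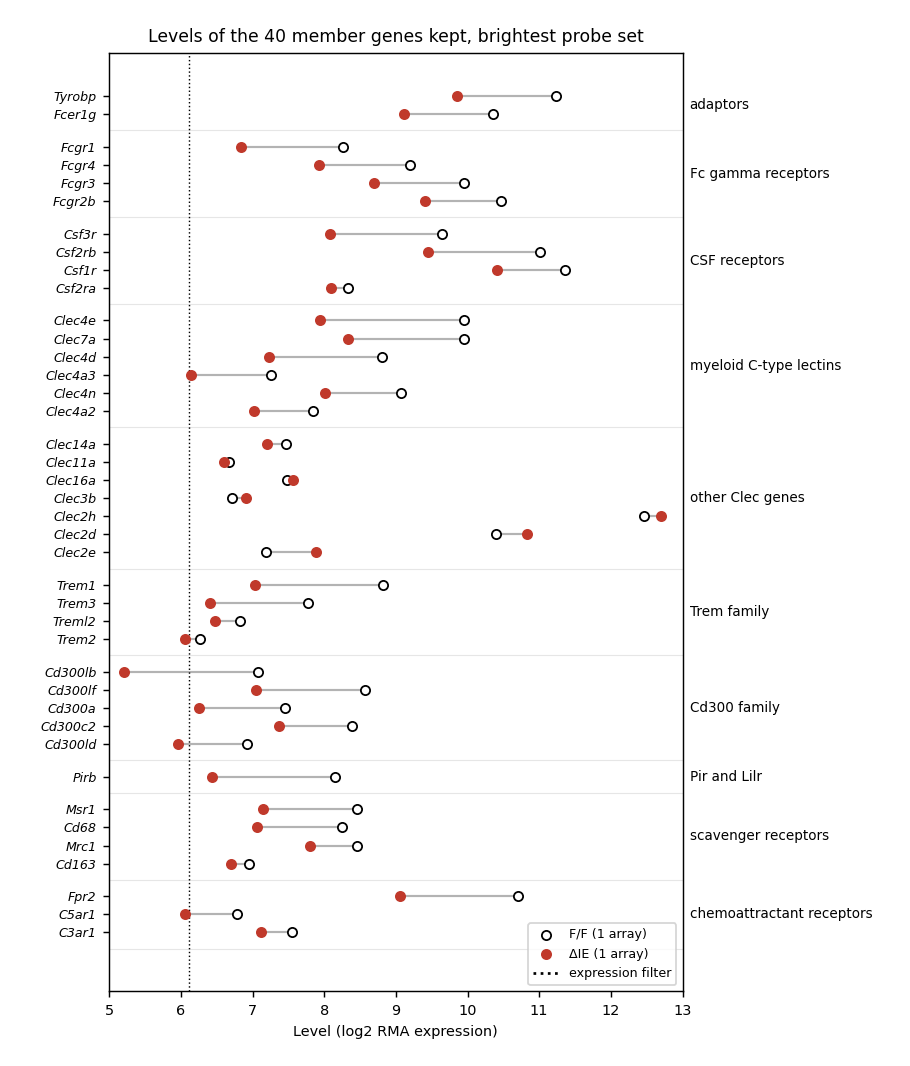
Levels of the 40 member genes kept, as log2 RMA expression on the horizontal axis, with an open circle for the F/F array and a filled circle for the ΔIE array, by receptor group. The filled circle lies to the left in 35 genes, from Clec4e (9.94 to 7.94) to Clec11a (6.67 to 6.60), and to the right in 5 genes, all of the group of other Clec genes.

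**Figure D2:**
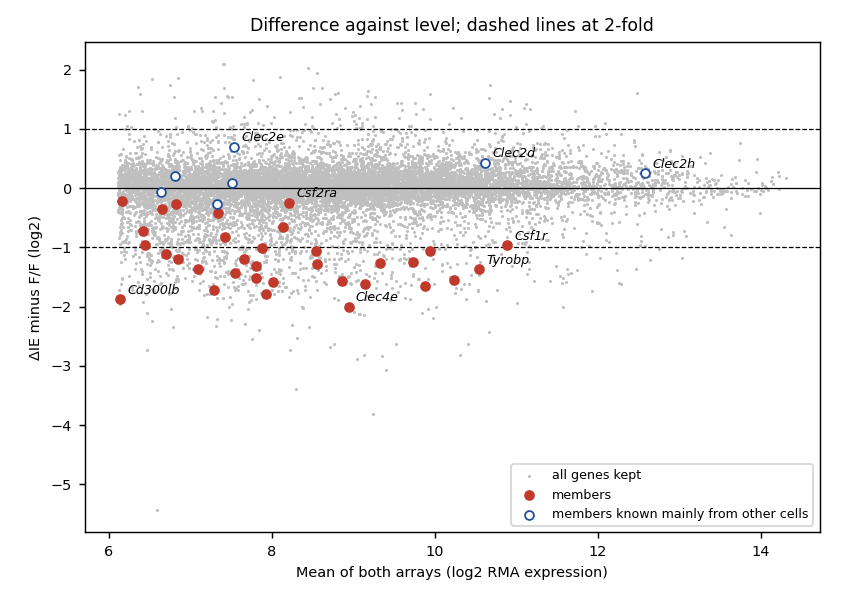
Difference (ΔIE minus F/F, log2) against the mean level of both arrays (log2) for 11593 genes kept (grey), with member genes filled and the 7 members set apart as mainly of other cells open. The 33 filled points all lie below 0 and 23 lie below the dashed line at -1, at mean levels from 6.14 (Cd300lb) to 10.54 (Tyrobp), whereas the open points run from -0.26 to 0.70.

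The promoters of 5 members, picked with the values known, are shown for a sequence that myeloid genes often hold. PU.1, the product of Spi1, is the master transcription factor of myeloid cells and binds the PU box, searched here as GAGGAA on both strands (TTCCTC when it lies on the opposite strand). The 250 bases before the transcription start are given 5′ to 3′ on the gene's strand from RefSeq on GRCm38.p6, in lower case with each PU box in capitals. Csf3r (chr4:126024409-126024658, plus strand), Clec4e (chr6:123289872-123290121, minus strand), Trem1 (chr17:48232489-48232738, plus strand) and Fcgr1 (chr3:96293970-96294219, minus strand) are members of 4 receptor groups and were each lower by 2-fold or more. Clec2h (chr6:128662135-128662384, plus strand) is a Clec gene that was not lower.
Csf3r: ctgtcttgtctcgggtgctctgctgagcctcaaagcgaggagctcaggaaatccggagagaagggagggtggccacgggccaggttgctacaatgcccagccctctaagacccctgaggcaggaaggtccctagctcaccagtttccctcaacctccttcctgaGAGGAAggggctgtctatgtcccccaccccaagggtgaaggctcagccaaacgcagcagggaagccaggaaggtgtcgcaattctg
Clec4e: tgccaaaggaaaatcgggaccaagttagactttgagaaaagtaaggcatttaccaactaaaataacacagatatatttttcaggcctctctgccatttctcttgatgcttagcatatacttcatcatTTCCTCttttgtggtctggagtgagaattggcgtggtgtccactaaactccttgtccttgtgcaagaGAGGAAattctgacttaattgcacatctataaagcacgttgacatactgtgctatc
Trem1: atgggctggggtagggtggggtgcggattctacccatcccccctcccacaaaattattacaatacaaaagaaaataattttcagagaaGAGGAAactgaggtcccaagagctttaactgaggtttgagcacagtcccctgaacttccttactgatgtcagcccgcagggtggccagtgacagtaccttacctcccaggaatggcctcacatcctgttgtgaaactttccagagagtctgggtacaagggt
Fcgr1: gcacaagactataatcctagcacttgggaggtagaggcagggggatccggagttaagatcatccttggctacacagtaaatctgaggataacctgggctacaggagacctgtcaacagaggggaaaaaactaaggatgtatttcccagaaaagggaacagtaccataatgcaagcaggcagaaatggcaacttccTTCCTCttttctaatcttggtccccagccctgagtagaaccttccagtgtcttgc
Clec2h: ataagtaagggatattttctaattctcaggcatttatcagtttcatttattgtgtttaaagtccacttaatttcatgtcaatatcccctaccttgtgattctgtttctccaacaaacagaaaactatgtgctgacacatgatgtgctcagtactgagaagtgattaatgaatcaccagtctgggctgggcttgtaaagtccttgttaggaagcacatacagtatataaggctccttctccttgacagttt

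The PU box began 86 bases before the start in Csf3r, 56 and 123 in Clec4e, 162 in Trem1 and 55 in Fcgr1, and the letters were not found in the Clec2h window. Other Clec genes that were not lower by 2-fold did hold them, among them Clec11a, Clec14a and Clec16a. So did the myeloid members Mrc1, Csf2ra and Trem2, which were not lower by 2-fold either. Promoter sequence was at hand for 46 of the 57 member genes, and 28 of these (60.9%) held GAGGAA on either strand, against 25.8% of 27025 genes with such a window. Among member genes kept, 15 of 18 that were lower by 2-fold held it, and 7 of 14 of the others. A match is a run of letters and not a shown binding site, paralogous genes share ancestry, and these sets were formed with the values known, so the shares are a description. Spi1 itself read 8.39 on the F/F array and 7.11 on ΔIE, 2.43-fold lower. Whether its level bears on the members was not tested.

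The adaptors were lower together. Tyrobp, the chain used by TREM-1, TREM-2, TREM-3 and the lectin MDL-1, read 11.23 on the F/F array and 9.86 on ΔIE, 2.59-fold lower. Fcer1g, the chain used by the activating Fc gamma receptors and by Mincle and Dectin-2, read 10.36 and 9.11, 2.38-fold lower. The genes of their receptor partners, a grouping made with the values known, went the same way: all 6 partners of Fcer1g examined were lower by 2-fold with a median of -1.35. Of 5 partners of Tyrobp, Trem1 and Trem3 differed by -1.79 and -1.36. Cd300lb (-1.88), Trem2 (-0.22) and Clec5a (-1.65, not kept) lay under the filter on ΔIE, which leaves the sizes of their differences uncertain.

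All 4 Fc gamma receptor genes were lower by 2-fold or more, in a range of 2.09-fold to 2.69-fold. Fcgr1, the high-affinity IgG receptor, read 8.27 on the F/F array and 6.84 on ΔIE. Its dimmer probe set differed by -0.42 in place of -1.43, the widest disagreement among probe sets kept of 1 member, and the mean over both was -0.92. Fcgr3 and Fcgr4, activating receptors that bind IgG in immune complexes, differed by -1.26 (9.95 to 8.70) and -1.27 (9.19 to 7.92). Fcgr2b, the inhibitory member, which B cells express as well, read 10.47 and 9.41, 2.09-fold lower. Its 4 probe sets kept differed by -1.07 to -0.72, but all of them have IDs that end in _s_at, _x_at or _a_at, which can read several transcripts; without them only a probe set at the bottom of the scale remained, with a difference of 0.05.

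Members of both the inhibitory and the activating kind were among those lower. Of 5 members known as inhibitory receptors, Fcgr2b, Pirb, Cd300a, Cd300lf and Clec4a2, 4 were lower by 2-fold and the median was -1.20. The median of the Fcer1g partners was -1.35. Both lists were made with the values known, so they are a description and not a test of either kind. Pirb, the paired immunoglobulin-like receptor B, which binds MHC class I, read 8.15 on the F/F array and 6.43 on ΔIE, 3.30-fold lower. The probe sets shared by Pirb with the activating Pira1 and Pira2 genes could not be divided between them: the brighter read 9.50 and 7.72, a difference of -1.78, and a dimmer one, below the filter, differed by -0.63. A probe set shared by 6 genes of the Pir cluster differed by -1.80. The probe set that Lilrb4a, the mouse inhibitory receptor gp49B, shares with Lilr4b differed by -1.64 (10.88 to 9.24), and it cannot be given to either gene.

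The growth factor receptors differed in size. Csf3r, the receptor for G-CSF, which sustains neutrophils, read 9.65 on the F/F array and 8.08 on ΔIE, 2.96-fold lower. Csf2rb, the beta chain shared by the receptors for GM-CSF, IL-3 and IL-5, read 11.01 and 9.45, 2.94-fold lower, and its second probe set differed by -1.73. Csf1r, the receptor that macrophages need to survive, read 11.37 and 10.40, a 1.95-fold difference that falls short of 2-fold, and its other probe sets differed by -0.85 and -0.68. Csf2ra, the alpha chain of the GM-CSF receptor, read 8.33 and 8.09 and differed by only -0.24. The alpha and beta chains of the GM-CSF receptor thus differed by -0.24 and -1.56, with 1 probe set kept for the alpha chain. The probe set shared by Csf2rb and its close copy Csf2rb2 differed by -0.62.

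Among the C-type lectins of the Dectin groups and their relatives, 6 of 14 genes were kept, all of them known from myeloid cells, and 5 of these were lower by 2-fold, with a median of -1.35. The dimmer probe set of Clec4e differed by -1.59, beside -2.0 for the brighter. Clec7a, which encodes Dectin-1, the receptor for fungal beta-glucan that signals through its own tail, read 9.95 on the F/F array and 8.33 on ΔIE, 3.06-fold lower. Clec4d, the partner of Mincle, read 8.81 and 7.23, 3.00-fold lower. Clec4n, which encodes Dectin-2, the receptor for fungal mannan, read 9.08 and 8.02, 2.08-fold lower by its brighter probe set and by -1.39 on the log2 scale by the other. All probe sets of Clec4d and Clec4n have IDs that end in _s_at or _a_at, so neither gene remained once such probe sets were left out. Clec4a3 was 2.16-fold lower, to a level of 6.15 that lies just above the filter. Clec4a2, the inhibitory dendritic cell receptor DCIR, read 7.85 and 7.01 and was 1.78-fold lower, and the probe set it shares with Clec4b1 read 7.86 and 6.81, a difference of -1.06.

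The other 8 lectin genes were not kept. Clec1b, Clec4b1 and Clec12b lay between 3.58 and 3.74 on both arrays, and Clec1a, Clec4f and Clec4g between 5.19 and 5.76, and no difference is read from them. Clec5a, the lectin MDL-1 of monocytes and neutrophils, was not kept, yet it read 6.36 on the F/F array and 4.71 on ΔIE, a difference of -1.65. Clec10a, a lectin of macrophages and dendritic cells that binds N-acetylgalactosamine, read 6.14 and 5.64.

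Among the remaining Clec genes, 7 were kept and 0 of these were lower by 2-fold. Clec2h, Clec2d and Clec2e encode Clr proteins, the ligands of NKR-P1 receptors on natural killer cells, and Clec2h and Clec2e are known from gut epithelium. Clec2h read 12.46 on the F/F array and 12.70 on ΔIE, and its 3 probe sets differed by 0.06 to 0.26. Clec2d read 10.40 and 10.83, 1.35-fold higher. These differences sit beside a median of 0.11 over the 12 colon epithelium markers. Clec14a, a protein of endothelial cells, read 7.46 and 7.20. Clec3b (the plasma protein tetranectin), Clec11a (a secreted growth factor of bone and marrow) and Clec16a (an intracellular protein of autophagy with no lectin function) differed by 0.21, -0.07 and 0.09. The other 5 genes of this group, Clec2g, Clec2i, Clec2l, Clec2m and Clec18a, were below the filter on both arrays; Clec2g read 4.53 and 3.30.

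In the Trem family, the differences were unequal in size. The smaller ones belonged to the genes with lower mean levels, so a division of the family is not shown. Trem1, the amplifying receptor of neutrophils and monocytes, read 8.83 on the F/F array and 7.04 on ΔIE, 3.45-fold lower, and its dimmer probe set, below the filter, differed by -1.28. Trem3, its neighbour in the gene cluster, read 7.77 and 6.41, 2.57-fold lower. By contrast Trem2, the lipid receptor of tissue macrophages, read 6.27 and 6.05, at the filter, and differed by -0.22. Treml2 differed by -0.35 by its brightest probe set (6.82 to 6.48), while another, below the filter, read 6.33 and 4.64. Treml4 was below the filter on both arrays (4.99 and 3.93), as was Treml1, a platelet receptor (5.14 and 5.24).

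All 5 Cd300 genes kept were lower, 4 of them by 2-fold, with a median of -1.20. The Cd300 proteins bind lipids such as those exposed on dying cells. Cd300lb, an activating member that pairs with DAP12, read 7.08 on the F/F array and 5.21 on ΔIE, below the filter, so that the size of its difference of -1.88 is uncertain. Cd300lf, an inhibitory member and the entry receptor of murine norovirus, read 8.57 and 7.05, 2.88-fold lower. Cd300a, an inhibitory receptor for phosphatidylserine, read 7.45 and 6.25, 2.29-fold lower. Averaged with a second probe set at the bottom of the scale, it differed by -0.55. Cd300c2 and Cd300ld lay on either side of the 2-fold line, at 2.02-fold (8.39 to 7.38) and 1.95-fold (6.93 to 5.96). The only probe set of Cd300c2 has an ID that ends in _a_at, which can read several transcripts. Cd300lg, known from endothelium, was below the filter at 4.95 and 5.29.

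Scavenger receptors take up modified lipoproteins, microbes and cell debris, and their members differed unequally. Msr1, the class A scavenger receptor, read 8.46 on the F/F array and 7.14 on ΔIE, 2.50-fold lower, and with 2 dim probe sets averaged in it differed by -0.70. Cd68, a lysosomal protein of macrophages, read 8.25 and 7.06, 2.28-fold lower. Mrc1, the mannose receptor, read 8.46 and 7.80, 1.58-fold lower. Cd163, the receptor for haemoglobin bound to haptoglobin, read 6.96 and 6.70, a difference of -0.26. Marco was not kept, at 6.32 and 4.87. Thus the differences of Mrc1 and Cd163, which are both markers of resident or alternatively activated macrophages, were smaller than those of Msr1 and Cd68; whether they differ from one another beyond the error of the arrays could not be tested.

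Of the 3 chemoattractant receptor genes, Fpr2, a receptor for formylated bacterial peptides and for annexin A1, had the largest difference, at 10.70 on the F/F array and 9.05 on ΔIE, 3.13-fold lower. C5ar1, the receptor for complement fragment C5a, read 6.78 and 6.05 by its brightest probe set, a difference of -0.73, and its second probe set differed by -1.43. C3ar1, the receptor for C3a, read 7.55 and 7.12, and its 3 probe sets differed by -0.52 to -0.36. All 3 were thus lower, and by the brightest probe set Fpr2 alone passed 2-fold. Averaged over its probe sets C5ar1 differed by -1.08, past 2-fold as well. Both its probe sets lay under the filter on ΔIE, at 6.05 and 5.42, which leaves the size of that difference uncertain.

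Probe sets of a gene gave the same direction. In each of the 10 member genes with more than 1 probe set kept, all probe sets had the same sign, and the span between them had a median of 0.31 and a maximum of 1.01 (Fcgr1). At the level of probe sets, 55 of 89 were kept, and 30 of these (54.5%) were lower by 2-fold, against 3.98% of 19584 probe sets kept. Without any filter on level, 27 of all 57 member genes were lower by 2-fold and 45 were below 0. Over all 18193 genes, 3.72% were lower by 2-fold and 42.4% were below 0.

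**Figure D3:**
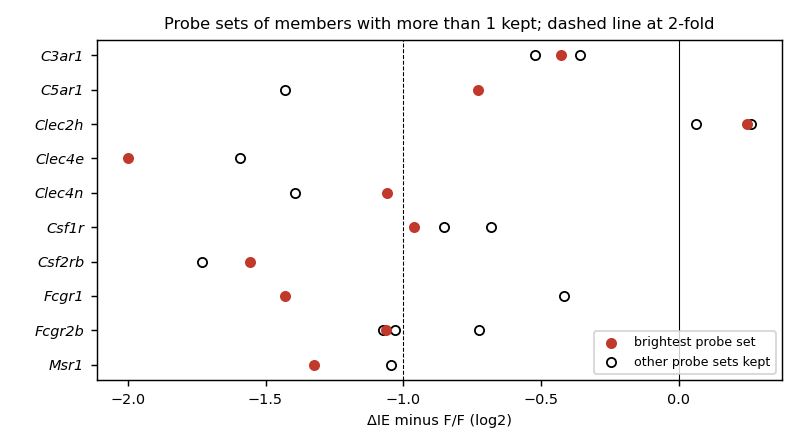
Differences (ΔIE minus F/F, log2) of each kept probe set for the 10 member genes with more than 1, with the brightest filled and the others open. Points of 1 gene lie on the same side of 0 in all 10, and the widest spread is that of Fcgr1, from -1.43 to -0.42.

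Many members lie side by side in the genome, where families arose by duplication. In RefSeq gene order, with at most 10 protein-coding genes between neighbours, 5 clusters held 33 of the 57 members. The neighbours Fcgr2b, Fcgr4, Fcgr3 and Fcer1g were all lower by 2-fold, with a median of -1.26. In the cluster of Dectin-2 relatives, the order C3ar1, Clec4a3, Clec4b1, Clec4a2, Clec4n, Clec4d, Clec4e and Cd163 ran from -0.43 at C3ar1 to -2.0 at Clec4e and -0.26 at Cd163, with 4 of 7 genes kept lower by 2-fold. The cluster that starts with Clec2h and ends with Clec7a held members of both directions, since Clec2e was 1.62-fold higher and Clec7a 3.06-fold lower. Neighbouring genes therefore did not share 1 difference in either Clec cluster.

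Genes of signalling molecules downstream of the receptors were lower in part. Of 24 ITAM and ITIM signalling genes kept, 19 were below 0 and 5 were lower by 2-fold, with a median of -0.55. The Src-family kinase gene Fgr was 2.80-fold lower (8.42 to 6.93), Btk 2.31-fold, Sla 2.31-fold, the adaptor gene Lcp2 (SLP-76) 2.21-fold and Lat2 2.12-fold. Syk, the kinase that binds the ITAM, read 9.36 on the F/F array and 8.75 on ΔIE, 1.53-fold lower, while the 5 genes above 0 were Dok1 (0.34), Src (0.27), Blnk (0.20), Pik3cd (0.11) and Ptpn11 (0.04). Of 13 myeloid transcription factor genes kept, 2 were lower by 2-fold, Spi1 and Cebpd (2.03-fold), with a median of -0.34, and Irf8 and Cebpa differed by 0.15 and 0.13. Irf4, Cebpb and Id2 differed by -0.99, -0.91 and -0.81.

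Ligands of the receptors were few on these arrays. Csf3, the gene of G-CSF, read 8.55 on the F/F array and 7.18 on ΔIE, 2.58-fold lower, beside its receptor at 2.96-fold. Csf1, the ligand of the CSF-1 receptor, read 8.05 and 7.64, 1.32-fold lower. Pdpn, the ligand of the platelet lectin CLEC-2, was 2.03-fold lower, and Anxa1, a ligand of FPR2, 1.67-fold (13.29 to 12.55). Il34 and Csf2, the other ligands of CSF-1 and GM-CSF receptors, were below the filter on both arrays.

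Pan-leukocyte genes were lower on the same array, so the receptor genes were set beside them. In a bulk scraping, fewer cells of a type and less RNA per cell cannot be told apart. All 10 pan-leukocyte genes kept, such as Ptprc (CD45) and Coro1a, were lower by 2-fold, from -1.76 to -1.18 with a median of -1.47. Of the 40 members kept, 3 were lower than the lowest of these, 16 lay within their range and 21 above it. The 3 were Clec4e, Cd300lb and Trem1, and none of them is a secure case. The second probe set of Clec4e, at -1.59, lay within the range. Cd300lb was under the filter on ΔIE, at 5.21. Trem1, at -1.79, passed the limit narrowly, and its dimmer probe set, below the filter, differed by -1.28. The 21 above the range include the 7 Clec genes set apart as mainly of other cells. All 10 neutrophil markers kept were lower, 8 by 2-fold (median -1.49), among them Camp, a granule protein, at 3.65-fold, and S100a8 at 1.58-fold. Of 15 monocyte and macrophage markers kept, 14 were below 0 and 6 were lower by 2-fold (median -0.77), with Itgam at -1.48, Ccr2 at -1.43, Adgre1 at -0.64, Cx3cr1 at -0.29 and Mertk at 0.56. Of 4 dendritic cell markers kept, 1 was lower by 2-fold (Fscn1, median -0.89).

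Markers of other cell types differed as well, and their part in the receptor differences was not tested. B cell markers had a median of -1.81 with 4 of 4 lower by 2-fold; B cells also express Fcgr2b and Btk. Fibroblast and endothelial markers had medians of -0.88 and -0.52, and smooth muscle -0.08. T and NK cell markers, although leukocyte genes, had a median of -0.10 with 0 of 6 lower by 2-fold. Within them, Cd3g, Cd3d and Cd3e differed by -0.65, -0.53 and -0.20. Gzma differed by 0.13, and Cd4 and Nkg7, both near the filter, by -0.003 and 0.04. Mast cell markers had a median of -0.26 over 4 genes kept, with Hdc, which neutrophils express too, at -1.48 and Kit at 0.93, while Cpa3 and Tpsb2, which define the cell, were below the filter. Squamous epithelium genes (median -1.46, 4 of 6 lower by 2-fold) and the posterior Hox genes (median -1.46, 5 of 6) were lower on the same array. With 1 array per genotype, genotype cannot be told apart from the mice, the stretch of colon scraped or the array.

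**Figure D4:**
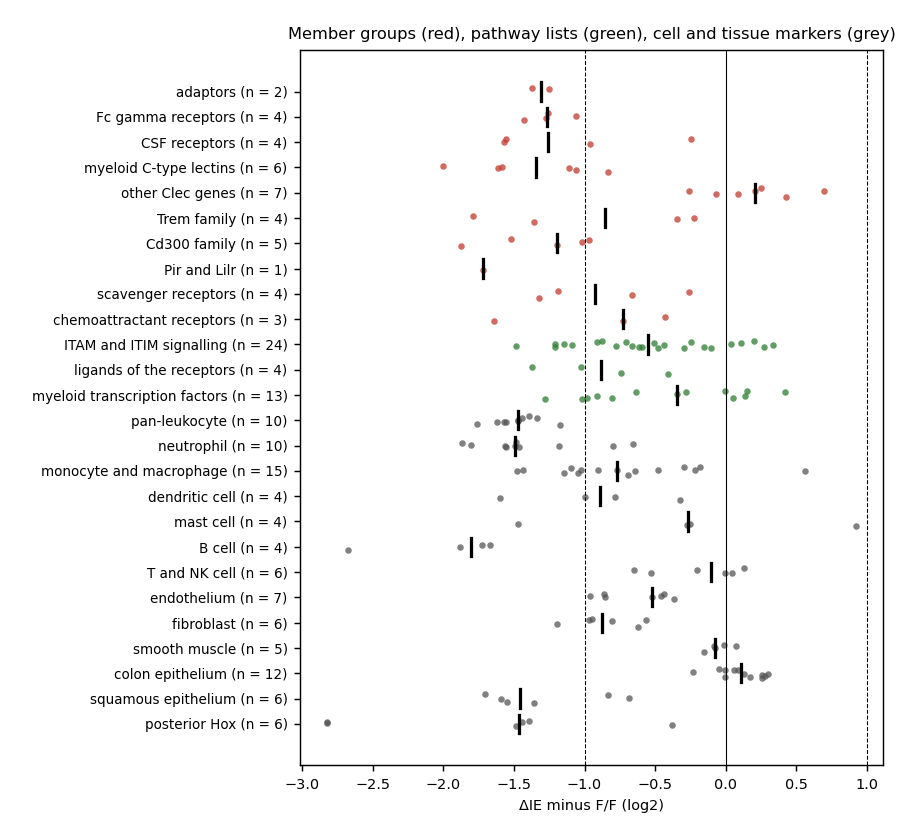
Difference (ΔIE minus F/F, log2) of each gene kept, as points, with the median of each group as a bar, for the receptor groups, the pathway lists and the cell and tissue markers; dashed lines mark 2-fold. The receptor groups other than the remaining Clec genes have medians from -1.72 to -0.73, beside -1.47 for pan-leukocyte genes, -0.77 for monocyte and macrophage markers and 0.11 for colon epithelium.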

How the data were processed

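Total RNA of colon mucosal scrapings was measured on 1 array per genotype. The deposited values are log2 expression of 45101 probe sets, made by the authors using RMA and affy, per the submitters' processing notes; no version or filter is given in the sources used here. RMA gives no detection call, compresses differences of dim probe sets and sets the distributions of arrays equal, so a change in total RNA would not be seen. The number of arrays limits the precision.

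Symbols came from the platform annotation (34945 probe sets with 1 symbol, leaving out 64 control probe sets, 932 with several, 9211 with none). A gene took its probe set with the highest mean, and was kept where that mean reached 6.11; 11593 genes were. Counts are at 2-fold. Any member may be named; of the other lists, Spi1, Syk, Csf1, Csf3 and up to 5 genes of largest difference are named by rule, and others were named with their values known. Members and lists were chosen with earlier results of these data known. The division into cell of origin, the signalling partners, the list of inhibitory receptors and the promoters shown were drawn up after values were seen. Promoters are RefSeq windows on GRCm38.p6. The calling steps were tested on simulated data with changes well past 2-fold, so calls near 2-fold were not tested. Alternatives were the mean over probe sets, leaving out probe sets with less specific IDs, 5 choices of filter in all, median centring, lowess (span 0.3), 1.5-fold and 3-fold, and leaving out members of other cells. Python 3.11.15, numpy 2.4.6, pandas 2.3.3, statsmodels 0.14.6 and matplotlib 3.10.9 were used.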

Additional observations from a re-analysis of the deposited data

How the results depend on the processing

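No paired analysis was possible because each genotype has 1 array. The count of 23 member genes lower by 2-fold ran from 19 to 27 under the other filters but the strictest, averaging, specific probe sets, centring and lowess. As a share of the members counted, this was 47.4% (27 of 57, no filter) to 61.1% (22 of 36, filter on both arrays). Over all genes, the share at these settings was 3.72% to 5.30%. With the filter at the 75th percentile the count was 11 (of 15 kept), beside 3.72% of all genes kept. At 3-fold it was 7 of 40, where 1.35% of all genes kept were lower. The 30 probe sets became 14 and 9 under the same settings, and 34 with probe sets of several symbols, an alternative chosen after seeing the data. The share over all probe sets was not taken at these settings, so these counts have no background beside them. At 1.5-fold 28 genes were lower, beside 9.96% of all genes kept, and 1 was higher. The median of -1.08 was -1.19 with specific probe sets, -0.96 without a filter, -1.26 with the 75th percentile filter and -1.25 without members of other cells; fewer or other genes enter in each. Single genes shifted by over 0.39, the 95th percentile of the distance between a gene's brightest probe sets, in 3 of 40 when probe sets were averaged (Cd300a -0.55, Fcgr1 -0.92, Msr1 -0.70), and 1 of 37, Fcgr2b, turned to 0.050 with specific probe sets. Trem2 also changed sign with specific probe sets, to 0.056 by a probe set below the filter, a shift of less than 0.39. Clec4d, Clec4n and Cd300c2 have no specific probe set and dropped out of that setting. Centring and lowess shifted 0 of 40 by over 0.39. That limit, and 0.10 for medians, were set after seeing the data. Values near the filter understate differences, and 1 member lower by 2-fold (Cd300lb) was below it on the ΔIE array.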
